A study of Mus musculus with 7 samples.

Results

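The exocyst is a complex of 8 proteins that holds secretory vesicles at the plasma membrane until SNARE proteins fuse the membranes. Its genes in mouse are Exoc1 to Exoc8, with Exoc6b as a paralogue of Exoc6. These 9 genes were taken by name from a liver count table of 51826 genes, and all 9 passed the filter on low counts, which left 13989 genes. The set was built around Exoc4, which was selected on its KI and WT counts as one of the few genes called between the genotypes, and the question was whether the rest of the complex moved with it. The difference of Exoc4 is therefore given as a description. Its interval, adjusted p-values and calls are printed below but are not read as a test. The other 8 subunits were tested.

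There were 4 liver libraries of male C57BL/6J mice homozygous for the Sprtn Y118C knock-in allele (KI) and 3 of wild-type males (WT), all aged 6 months and untreated. SPRTN is a protease that digests proteins covalently trapped on DNA. The allele is in the germline and thus in every cell, and RNA was taken from whole liver, so that fewer cells of a type and less RNA per cell cannot be told apart. The labels do not say whether the genotypes were littermates, nor that each library is a separate animal, so that p-values measure the spread between these libraries.

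Each library held between 36928472 and 46755357 counts. WT replicate 1 stood apart from the other WT livers. Along the leading principal component of log2 counts scaled per library (CPM, counts per 1000000), with 29.5% of the variance, it lay at -9.56, against -26.36 to -7.95 in KI and 32.52 and 35.98 in the other WT livers. KI replicate 1 had 61.3 CPM summed over 5 skeletal muscle genes, against at most 0.323 CPM in each of the other 6 libraries. All 5 hepatocyte markers (Alb, Apoa1, Ttr, Cps1 and Serpina1c) were detected in every library, at a summed 60450 to 81530 CPM in KI and 73530 to 86000 CPM in WT. The summed Kupffer cell markers Clec4f, Timd4 and Adgre1 lay at 74.4 to 96.1 CPM in KI and 115 to 135 CPM in WT. The B cell markers Cd79a, Ms4a1 and Ighm summed to 8.69 to 12.4 CPM in KI and 6.93 to 8.34 CPM in WT. The Kupffer and B cell sums did not overlap between the genotypes, and their part in the values below was not tested. The marker sums of the other cell types, among them sinusoidal endothelium, stellate cells, cholangiocytes, T cells and neutrophils, overlapped between the genotypes.

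The exocyst assembles from a module of Exoc1 to Exoc4 and a module of Exoc5 to Exoc8, each a bundle of long helical rods, as known mainly from yeast and mammalian cells. Exoc1 and Exoc7 bind phosphoinositides of the plasma membrane, Exoc2 and Exoc8 bind the active form of the small GTPases RALA and RALB, and Exoc6 binds the vesicle GTPase RAB11. In epithelial cells, hepatocytes among them, the complex directs membrane proteins to particular surfaces, and in fat and muscle cells it takes part in delivery of the glucose transporter GLUT4.

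A pair of promoters shows where Exoc4 and Exoc8 start. Exoc4 (ENSMUSG00000029763, chromosome 6, 33249085 to 33973979, plus strand, mm10) is the subunit with the difference between genotypes. Exoc8 (ENSMUSG00000074030, chromosome 8, 124893108 to 124897705, minus strand) lies head to head with Sprtn (ENSMUSG00000031986, chromosome 8, 124897886 to 124906161, plus strand), the gene that carries the mutation, with 180 bases between their annotated starts. The sequences are from RefSeq, build GRCm38.p6, and run from 250 bases before to 50 bases after the RefSeq start, on the strand of the gene. The RefSeq start of Exoc4, at 33249128, lies 43 bases inside the start in the deposited table, and that of Exoc8 is the same in both. Capitals mark matches on either strand to the motifs named after them.
Exoc4 promoter, chr6:33248878-33249177, plus strand: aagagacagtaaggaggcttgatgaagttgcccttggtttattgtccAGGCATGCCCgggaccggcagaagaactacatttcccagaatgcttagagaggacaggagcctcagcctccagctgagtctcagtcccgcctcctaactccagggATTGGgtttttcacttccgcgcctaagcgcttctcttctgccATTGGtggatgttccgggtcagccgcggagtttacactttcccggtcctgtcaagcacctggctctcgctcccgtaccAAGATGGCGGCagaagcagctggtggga
Exoc8 promoter, chr8:124897656-124897955, minus strand: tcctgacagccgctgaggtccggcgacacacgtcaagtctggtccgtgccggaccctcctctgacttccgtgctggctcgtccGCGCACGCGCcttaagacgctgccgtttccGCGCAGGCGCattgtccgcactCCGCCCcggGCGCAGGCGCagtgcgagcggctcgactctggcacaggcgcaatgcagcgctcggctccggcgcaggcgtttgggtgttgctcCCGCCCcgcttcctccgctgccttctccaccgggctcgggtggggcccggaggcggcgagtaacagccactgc

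The Exoc4 promoter held 2 matches to the CCAAT box (CCAAT, here read on the opposite strand) and 1 match to a form of the site of the factor YY1, the run of 11 capitals near its end. The CCAAT letters occur in 37.4% and those of the YY1 site in 0.633% of 32851 mouse promoters of the same length. Exoc8 held 3 matches to the core of the site of nuclear respiratory factor NRF1, the runs of 10 capitals with any base in the sixth place, which occurs in 4.60% of promoters, and 2 matches to the GC box GGGCGG, which occurs in 35.7%. Of the 300 bases shown for Exoc8, 288 are also in the Sprtn promoter window, read from the other strand. The GC content was 56.3% in the Exoc4 window and 71.0% in the Exoc8 window, against a median of 52.7% over all promoters. Neither window held a TATA box (TATAAA), found in 13.6% of promoters, an E-box (CACGTG), found in 7.15%, or a cAMP response element, found in 1.79%. The Exoc4 window held 1 match to a half-site of p53, the run of 10 capitals near its beginning, and the Exoc8 window held none, against a half-site in 8.36% of all promoters. No motif overlapped another. The motifs were chosen after the values had been seen, and these matches are letters in a window, not measured binding.

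Exoc4, known as Sec8 in yeast, is a core subunit of the first module. It had 27.8, 31.3, 26.4 and 27.6 CPM in KI livers, against 14.5, 14.3 and 16.2 CPM in WT livers. The lowest KI liver thus lay well above the highest WT liver, and KI replicate 1, the liver with the muscle transcripts, lay within the range of the other KI livers. These values rest on 1042 to 1259 counts in KI and 573 to 777 counts in WT. Means were 28.3 ± 2.10 CPM in KI (SD, n = 4) and 15.0 ± 1.01 CPM in WT (SD, n = 3), a 1.88-fold ratio. On the log2 scale the difference, KI minus WT, was 0.91 with a standard error (SE) of 0.090 and a 95% interval from 0.71 to 1.12. Its size moved little when single libraries were left out, from 0.87 without KI replicate 2 to 0.97 without WT replicate 3. Over all genes, 0.0286% (4 of 13989) were called higher in KI by edgeR's quasi-likelihood test at an adjusted p under 0.05, and Exoc4 was taken from among them, so that nothing is read from its own call. That call is lost without KI replicate 1, KI replicate 4 or WT replicate 2 (edgeR adjusted p = 0.0937, 0.0771 and 0.139).

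The rest of the complex did not show a change of that size. By edgeR's quasi-likelihood test, 0 of the other 8 subunits were called at an adjusted p under 0.05, where 0.0357% of all genes were called in either direction, and 0 had an unadjusted p under 0.05, where 10.6% of all genes did. DESeq2, which called 1.36% of the genes it tested, and limma-voom also called 0 of the 8. The background depends on 1 library: without WT replicate 1, edgeR called 98 genes over the whole table, against 5 with all libraries, and without any other single library it called 3 to 5. None of the 8 subunits was among the 98. The authors' deposited table, in which 0.633% of genes have a corrected p under 0.05, gives each of the 8 a corrected p of 0.9999. Their log2 differences ran from -0.029 to 0.23 with a median of 0.085, beside a median of 7.0e-04 over all genes tested, and 7 of 8 were above 0, where 50.1% of all genes were. The KI and WT livers overlapped for each of the 8, where 10.9% of all genes had groups that did not overlap. All 8 intervals ended below 0.71, the lower end of the interval of Exoc4, and the highest upper end was 0.52, for Exoc2. Since Exoc4 was chosen for its size, this is a description and not a test of the difference between subunits.

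**Figure D1:**
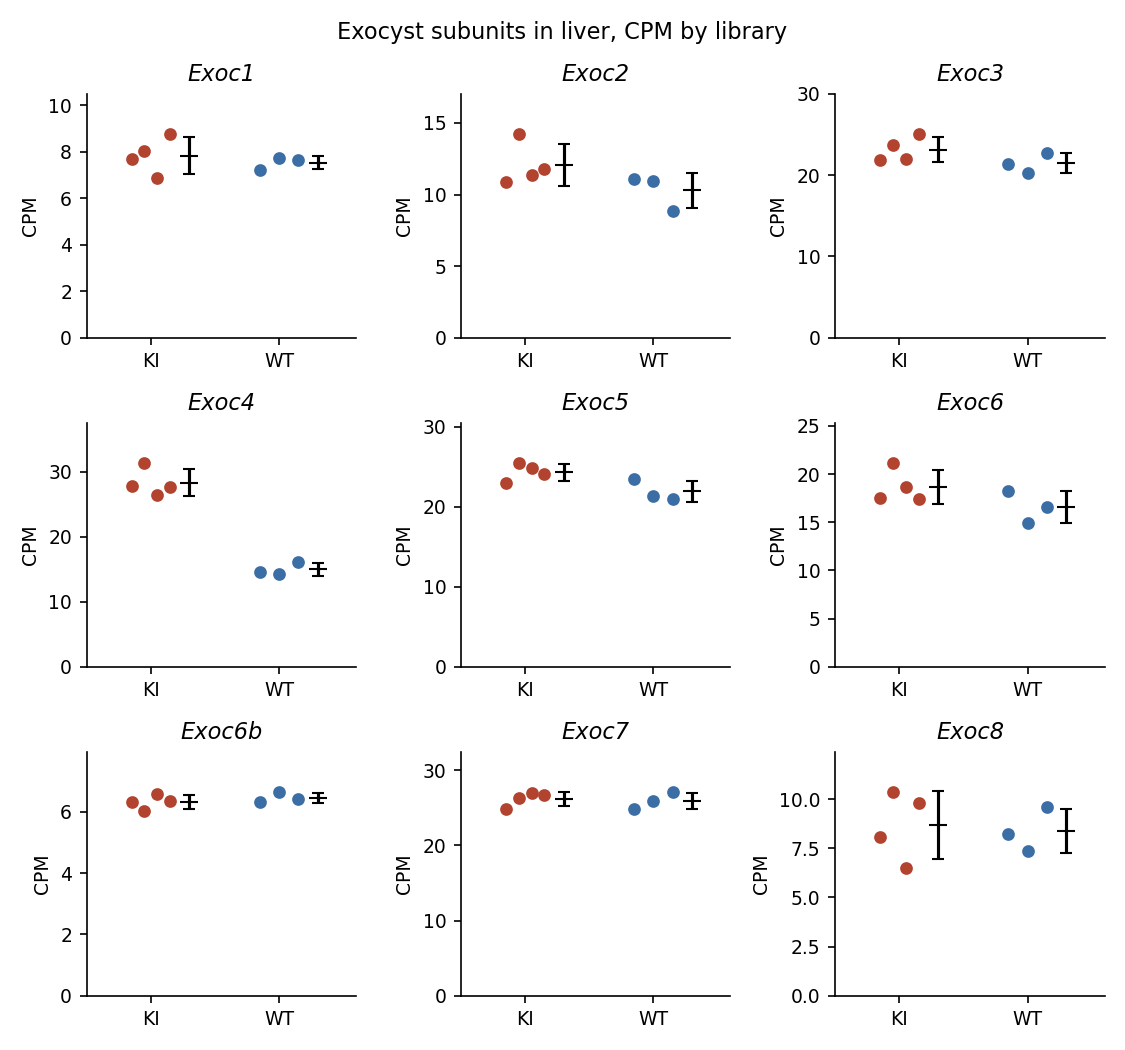
CPM of each exocyst subunit in each liver (dots), in KI (red, n = 4) and WT (blue, n = 3), with mean and SD in black and each axis starting at 0. The Exoc4 dots of KI, from 26.4 to 31.3 CPM, lie apart from those of WT, from 14.3 to 16.2 CPM, and the dots of every other subunit overlap.

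**Figure D2:**
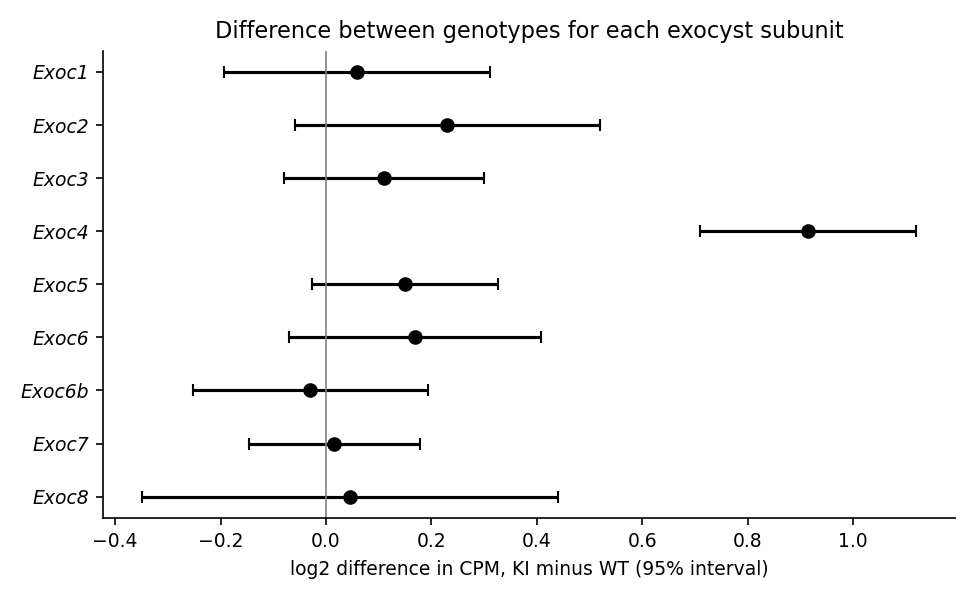
Log2 difference, KI minus WT, of each exocyst subunit with its 95% interval from the edgeR fit. Exoc4 lies at 0.91 and the other subunits lie between -0.029 and 0.23, each with an interval that includes 0.

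The other members of the first module were Exoc1, Exoc2 and Exoc3. Exoc2 (ENSMUSG00000021357, chromosome 13, 30813919 to 30974093, minus strand), through which RAL GTPases bind the complex, had 10.9, 14.2, 11.4 and 11.8 CPM in KI livers, against 11.0, 10.9 and 8.88 CPM in WT livers. Its single high KI liver was replicate 2, and 3 of 4 KI livers lay above every WT liver. KI minus WT was 0.23 on the log2 scale (SE 0.13), and the 95% interval ran from -0.058 to 0.52 (edgeR adjusted p = 0.542). Exoc3 (ENSMUSG00000034152, chromosome 13, 74169488 to 74208732, minus strand), a core subunit that contacts Exoc4, had 21.9, 23.7, 22.0 and 25.0 CPM in KI livers and 21.4, 20.2 and 22.7 CPM in WT livers. Those values overlapped, with a log2 difference of 0.11 (SE 0.083) whose interval ran from -0.079 to 0.30 (edgeR adjusted p = 0.651). Exoc1 (ENSMUSG00000036435, chromosome 5, 76529311 to 76570294, plus strand), a membrane-binding subunit, had 7.68, 8.05, 6.87 and 8.76 CPM in KI livers and 7.22, 7.71 and 7.65 CPM in WT livers. The WT livers lay within the KI range, and the log2 difference was 0.059 and its interval ran from -0.19 to 0.31 (edgeR adjusted p = 0.879).

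Among the second module, Exoc5, which links the complex to the vesicle-bound subunit Exoc6, came nearest to a difference by its unadjusted p of 0.0857. Exoc5 (ENSMUSG00000061244, chromosome 14, 49012146 to 49066653, minus strand) had 22.9, 25.4, 24.8 and 24.1 CPM in KI livers, against 23.4, 21.4 and 21 CPM in WT livers. Only KI replicate 1 and WT replicate 1 crossed, so that 3 of 4 KI livers lay above every WT liver. Its log2 difference of 0.15 (SE 0.077), whose interval ran from -0.026 to 0.33, did not pass (edgeR adjusted p = 0.520). Of its exonic bases, 2.94% are shared with Ap5m1 on the opposite strand.

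Exoc6 (ENSMUSG00000053799, chromosome 19, 37550418 to 37683245, plus strand), the RAB11 effector, had 17.5, 21.1, 18.7 and 17.4 CPM in KI livers and 18.3, 15.0 and 16.6 CPM in WT livers. KI replicate 2 was again the highest and WT replicate 2 the lowest liver, and the log2 difference was 0.17, in an interval from -0.071 to 0.41 (edgeR adjusted p = 0.585). Exoc6b (ENSMUSG00000033769, chromosome 6, 84618487 to 85069513, minus strand), its paralogue, had 6.33, 6.03, 6.59 and 6.36 CPM in KI livers and 6.31, 6.64 and 6.43 CPM in WT livers. This was the only subunit with a negative log2 difference, -0.029, and its interval ran from -0.25 to 0.19 (edgeR adjusted p = 0.939). The longest stretch of identical bases shared by the Exoc6 and Exoc6b coding transcripts was 18 bases, so that reads longer than this can be told apart where they meet a difference. The spread of Exoc6b between livers, with a coefficient of variation of 3.62% in KI and 2.59% in WT, was below the counting error of 6.18% and 5.98% that its counts carry.

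Exoc7 (ENSMUSG00000020792, chromosome 11, 116288001 to 116307233, minus strand), which anchors the complex to membrane lipids, had 24.9, 26.2, 27.0 and 26.8 CPM in KI livers and 24.9, 25.8 and 27.1 CPM in WT livers. The groups covered the same range, and the log2 difference of 0.016 had the narrowest interval of the 9 subunits, from -0.15 to 0.18 (edgeR adjusted p = 0.955). Of its exonic bases, 6.71% are shared with Gm26730 on the opposite strand.

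Exoc8, the second RAL-binding subunit and the neighbour of Sprtn, varied most between livers of a genotype. It had 8.05, 10.4, 6.51 and 9.79 CPM in KI livers and 8.22, 7.39 and 9.61 CPM in WT livers, a coefficient of variation of 20.1% in KI and 13.3% in WT. KI replicate 3 was the lowest of the 7 libraries and KI replicate 2 the highest, on either side of the WT range. Its log2 difference, KI minus WT, came to 0.045 (SE 0.17) with the widest interval of the 9, from -0.35 to 0.44 (edgeR adjusted p = 0.949). Sprtn, read from the other side of the shared promoter window, had 10.3, 11.9, 12.2 and 10.7 CPM in KI livers and 9.60, 11.3 and 9.15 CPM in WT livers, with a log2 difference of 0.18 (edgeR adjusted p = 0.588). KI replicate 3 held the highest Sprtn and the lowest Exoc8 value. The ratio of Exoc8 to Sprtn CPM ran from 0.532 in KI replicate 3 to 0.912 in KI replicate 4, and from 0.656 in WT replicate 2 to 1.05 in WT replicate 3, so that the pair did not keep 1 ratio across livers. Sprtn shares 10.4% of its exonic bases with Gm45709 on the opposite strand.

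The counts of Exoc4 relative to the rest of the complex can be compared between livers. CPM is not divided by gene length, so only differences between livers can be read from the ratio below, not its level. The ratio of Exoc4 CPM to the mean CPM of the other 8 subunits was 1.85, 1.85, 1.71 and 1.70 in KI livers, against 0.962, 0.994 and 1.08 in WT livers. Within each genotype this ratio moved little, at 1.78 ± 0.0848 in KI (SD, n = 4) and 1.01 ± 0.0598 in WT (SD, n = 3). The other 8 subunits summed to 120, 135, 124 and 130 CPM in KI livers and 121, 115 and 120 CPM in WT livers, which overlap. These ratios hold the gene chosen for its difference and carry no test.

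Levels of different subunits can be compared only per length, and the authors' deposited TPM values, which scale counts by gene length and library, were used for that. By TPM, Exoc6 and Exoc7 were the most abundant subunits, at 13.4 ± 1.92 and 11.7 ± 0.869 TPM in KI (SD, n = 4) and at 12.0 ± 0.945 and 11.8 ± 1.19 TPM in WT (SD, n = 3). The means of those 2 lay closer together than their SDs added up in either genotype, although Exoc6 was above Exoc7 in 4 of 4 KI livers, against 1 of 3 WT livers. Exoc3 followed at 7.55 ± 0.738 TPM in KI and 7.09 ± 0.701 TPM in WT, and Exoc5 at 4.80 ± 0.444 TPM in KI and 4.37 ± 0.0542 TPM in WT. Exoc8 lay at 3.71 ± 0.877 TPM in KI and 3.63 ± 0.636 TPM in WT, and Exoc2 at 3.40 ± 0.594 TPM in KI and 2.92 ± 0.240 TPM in WT. Exoc1 had 1.67 ± 0.202 TPM in KI and 1.63 ± 0.148 TPM in WT, and Exoc6b was the lowest at 1.10 ± 0.0436 TPM in KI and 1.15 ± 0.0840 TPM in WT.

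Exoc4 was the one subunit that moved by more than 1 place in this order. It had 4.38 ± 0.527 TPM in KI, the fifth highest, and 2.36 ± 0.279 TPM in WT, the seventh. In KI it stood between Exoc5 and Exoc8, and its mean lay from each by less than the SDs of the pair together, although Exoc5 was above it and Exoc8 below it in 4 of 4 livers. In WT it stood between Exoc2 and Exoc1, and Exoc2 lay above it in 2 of 3 livers. Exoc4 made up 8.46 ± 0.333% of the summed TPM of the 9 genes in KI and 5.01 ± 0.264% in WT. The single livers gave 8.79%, 8.70%, 8.14% and 8.21% in KI and 4.75%, 4.99% and 5.28% in WT.

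The order depends on the length used. With the annotated 4598 bases taken for Exoc8, the authors' values imply a model of 12640 bases for Exoc4, equal to the union of all its exons in GENCODE M21, while its longest coding transcript has 4824 bases. Of the 10 annotated Exoc4 transcripts, 3 are coding and 2 are retained introns, and gene counts do not tell them apart. Per kilobase of the longest coding transcript, Exoc4 ranked 2 of 9 in KI and 4 of 9 in WT, with 5.86 ± 0.435 and 3.11 ± 0.210 CPM per kb. Exoc7 ranked first in both genotypes on that scale and Exoc6b last. Exoc6 ranked 3 of 9 in KI, at 5.27 CPM per kb and thus below Exoc4, and 2 of 9 in WT. The model implied for Exoc6, 2729 bases, is shorter than its single GENCODE transcript of 3543 bases, so that its TPM stands higher than that length would give. The implied models of Exoc1, Exoc5 and Exoc6b, at 9158, 9932 and 11187 bases, are also shorter than their exon unions of 12042, 17988 and 15133 bases. By TPM, Exoc5 ranked 4 of 9 in both genotypes, but per kilobase of coding transcript it ranked 7 in KI and 8 in WT.

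**Figure D3:**
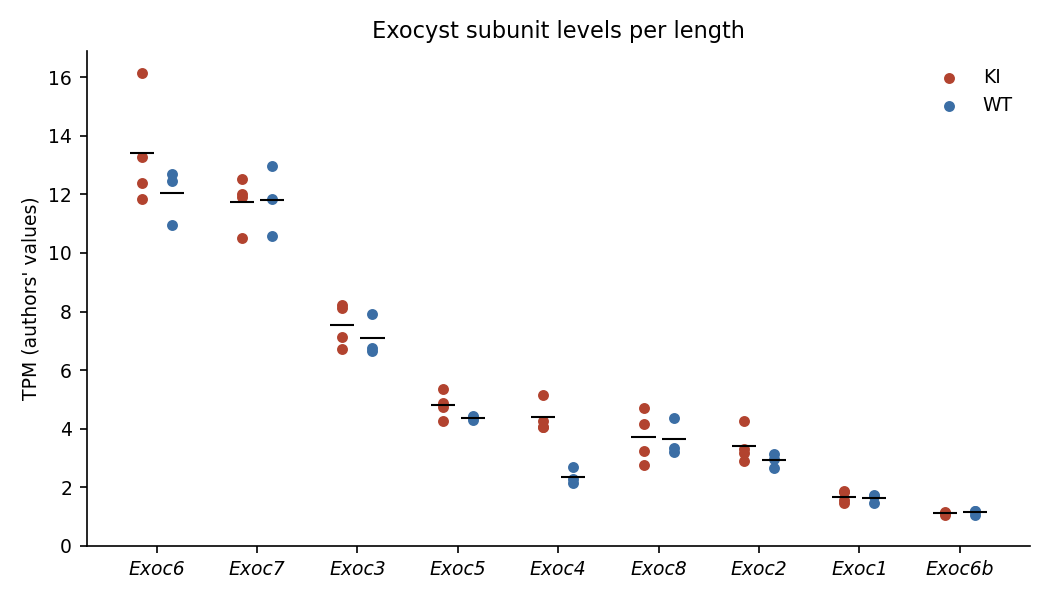
The authors' TPM of each exocyst subunit in each liver (dots), KI in red and WT in blue, with means as lines, ordered by the KI mean. Exoc6 and Exoc7 lead near 12 TPM, and Exoc4 lies at 4.38 TPM in KI and 2.36 TPM in WT.

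Exoc4 spans 725 kb, the longest of the 9 genes, and Exoc6b spans 451 kb, while the others span between 4.60 kb for Exoc8 and 160 kb for Exoc2. Those 2 very long genes differed in their values, with log2 differences of 0.91 for Exoc4 and -0.029 for Exoc6b. No exonic base of Exoc4 is shared with another annotated gene. Of the 43 other genes within 1 Mb of either end of Exoc4, 3 lie inside it, and these held 4 counts in all libraries together.

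Of these 43 genes, 14 were tested, and 0 were called by edgeR's quasi-likelihood test, where 0.0357% of all genes were, while 1 had an unadjusted p under 0.05, beside 10.6% of all genes. Their log2 differences were positive in 6 and negative in 8, with a median of -0.039. The nearest tested gene upstream was Chchd3, a protein of the mitochondrial inner membrane, 189 kb from the start of Exoc4. It had 76.8 ± 3.86 CPM in KI (SD, n = 4) and 82.6 ± 1.51 CPM in WT (SD, n = 3), a log2 difference of -0.10 (edgeR adjusted p = 0.618). It was the 1 neighbour of the 14 whose groups did not overlap, beside 10.9% of all genes, with all KI livers below all WT livers. Downstream the nearest was Slc35b4, a nucleotide sugar transporter, 179 kb from the end of Exoc4. Its CPM was 17.9 ± 2.15 in KI and 16.1 ± 2.83 in WT, a log2 difference of 0.16 (edgeR adjusted p = 0.709).

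The single neighbour with an unadjusted p under 0.05 was Akr1b8, an aldo-keto reductase 380 kb beyond Exoc4. It had 3.16, 3.38, 2.28 and 2.52 CPM in KI livers, against 2.29, 1.45 and 1.68 CPM in WT livers. The lowest KI liver and the highest WT liver met, and the log2 difference was 0.65 with an interval from 0.14 to 1.15 (edgeR adjusted p = 0.368). Akr1b3, Akr1b7 and Akr1b10, similar reductases of the same cluster, had log2 differences of 0.28, -0.40 and -0.36. Reads of this family may be split between its copies. Cald1, which encodes the actin-binding protein caldesmon, and Bpgm, an enzyme of the red cell glycolytic shunt, had 0.092 and 0.18. Tmem140 and Wdr91 had 0.25 and -0.14, and Agbl3 and 3110062M04Rik had -0.12 and -0.21. Plxna4, an axon guidance receptor, and its antisense gene Plxna4os1 had -0.0070 and -0.071, and counts of the pair cannot be told apart where they overlap.

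**Figure D4:**
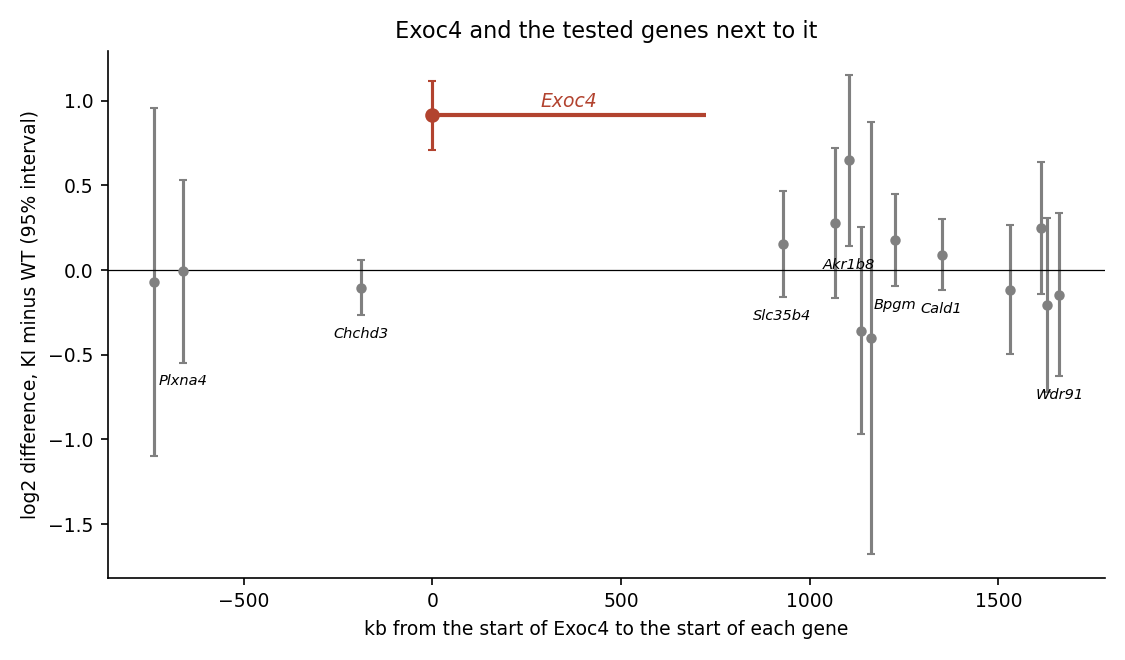
Log2 difference, KI minus WT, with 95% interval, of Exoc4 (red, with a bar for its length) and of the 14 tested genes within 1 Mb of it (grey, some of them named), against the distance between gene starts in kb. Exoc4 lies at 0.91 and the nearest genes on either side lie at -0.10 and 0.16.

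Genes that act with the exocyst were then set beside it in 6 lists of which 80 members were tested. By edgeR's quasi-likelihood test 0 of the 80 were called in either direction, and 6 had an unadjusted p under 0.05, beside 10.6% of all genes. The groups did not overlap for 12 of the 80, beside 10.9% of all genes in either direction. Of these 12, 9 were higher and 3 lower in KI, where 5.48% of all genes had all KI livers above all WT livers. The 21 GTPases and regulators of the exocyst had a median log2 difference of -0.013, with 10 above and 11 below 0. Ralgapb, a subunit of the complex that switches RAL off, had 14.9, 19.2, 18.2 and 20.4 CPM in KI livers and 15.5, 14.7 and 15.6 CPM in WT livers. KI replicate 1 lay among the WT livers, and the log2 difference was 0.25 (edgeR adjusted p = 0.473). Arf6, the GTPase of plasma membrane recycling that binds Exoc5, had 0.21 and an adjusted p of 0.548 in edgeR. Rgl2, an activator of RAL, had -0.17 (edgeR adjusted p = 0.552), and Rab11a, which recruits Exoc6 to recycling vesicles, had -0.13 (edgeR adjusted p = 0.584).

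The Exoc3-like paralogues, proteins with similarity to Exoc3 that stand outside the complex, had a median log2 difference of -0.11 over 4 tested genes. Tnfaip2, which takes part in forming membrane nanotubes, had 12.8, 8.21, 18.8 and 9.30 CPM in KI livers and 12.7, 17.1 and 18.7 CPM in WT livers. Its KI livers spread over more than the whole WT range (log2 difference -0.40, edgeR adjusted p = 0.617). Exoc3l2, Exoc3l and Exoc3l4 had -0.15, -0.079 and 0.14, and Exoc3l4 was low, at 0.706 ± 0.187 CPM in KI and 0.638 ± 0.389 CPM in WT.

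SNARE proteins and fusion factors of the plasma membrane act after tethering. Of 17 listed, 15 were tested, 6 above and 9 below 0, with a median log2 difference of -0.022. Nsf, the ATPase that takes SNARE complexes apart, had 15.0, 16.2, 14.0 and 14.0 CPM in KI livers and 12.6, 12.0 and 12.9 CPM in WT livers. All KI livers lay above all WT livers, as they did for 2 of the 15 and for 5.48% of all genes, but the difference of 0.24 did not pass (edgeR adjusted p = 0.388). Vamp8, a SNARE of regulated secretion, Napa, the adaptor of NSF, and Vamp3, a SNARE of recycling endosomes, had -0.23, -0.16 and -0.19 (edgeR adjusted p = 0.442, 0.472 and 0.501). All KI livers lay below all WT livers for Napa and Vamp3, the 2 of the 15 with that pattern. Over all genes, 10.9% had groups that did not overlap in either direction.

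Other tethering complexes with rod-like subunits similar to those of the exocyst work at the Golgi, endosomes and endoplasmic reticulum. Of the 16 genes of COG, GARP/EARP and NRZ, 14 were above and 2 below 0, where 50.1% of all genes were above 0. Their median log2 difference was 0.10, and 0 passed. Cog6, a Golgi tether subunit, had 23.1, 24.0, 24.4 and 23.4 CPM in KI livers and 21.6, 17.2 and 19.1 CPM in WT livers. The log2 difference was 0.30 (edgeR adjusted p = 0.336). Nbas of NRZ, Cog7 of COG and Vps53 of GARP/EARP had 0.22, 0.16 and 0.13 (edgeR adjusted p = 0.473, 0.510 and 0.520). Cog6, Cog7 and Vps53 were the 3 of the 16 whose KI and WT livers did not overlap, beside 10.9% of all genes. All 3 were higher in KI, as were 5.48% of all genes without overlap. The median of this list lay near that of the 8 exocyst subunits other than Exoc4, 0.085.

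HOPS and CORVET tether at endosomes and lysosomes. Their list, which also holds Vps33b and Vipas39, had a median of 0.044 over 10 genes, 7 above and 3 below 0. Vps33b, a partner of VIPAS39 in apical transport in hepatocytes, had 0.31 with an adjusted p of 0.418 in edgeR, and Vps8, Vps11 and Tgfbrap1 had 0.17, -0.12 and 0.15. For Vps33b and Vps8, 2 of the 10, all KI livers lay above all WT livers, as they did for 5.48% of all genes. The TRAPP complexes of the early secretory pathway had a median of 0.011 over 14 genes, 8 above and 6 below 0. Trappc11 had 42.1, 44.0, 42.7 and 44.4 CPM in KI livers and 38.7, 33.2 and 36.7 CPM in WT livers. Trappc4, a core TRAPP subunit, had 18.2, 17.4, 16.9 and 17.5 CPM in KI livers and 18.9, 20.3 and 22.9 CPM in WT livers. Neither passed, at log2 differences of 0.26 and -0.24 (edgeR adjusted p = 0.331 and 0.381). Trappc8 and Trappc10 had 0.13 and 0.15. Trappc11, Trappc4 and Trappc8 were the 3 of the 14 whose KI and WT livers did not overlap, beside 10.9% of all genes.

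**Figure D5:**
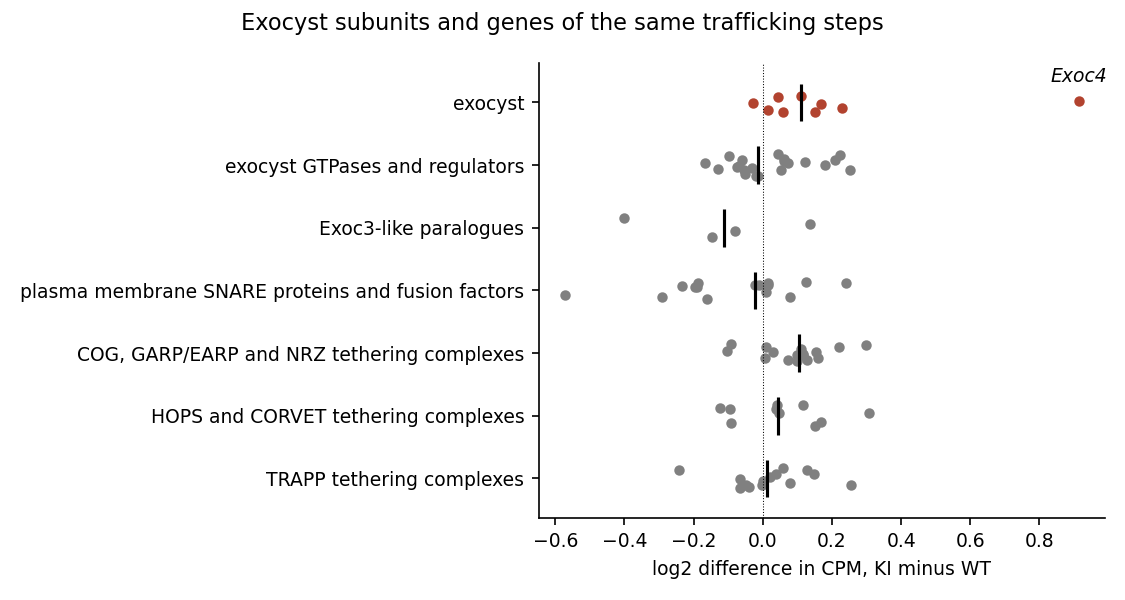
Log2 difference, KI minus WT, of each tested gene (dots) in the exocyst (red) and in 6 lists of related trafficking genes (grey), with the median of each list as a black line and vertical jitter for legibility. Exoc4 lies at 0.91, and the 80 genes of the other lists lie between -0.57 and 0.31.

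The genes whose log2 CPM followed Exoc4 most closely over the 7 libraries were sought among 8775 other genes with a mean of at least 5 CPM. Ccng1, which encodes cyclin G1, came first with a Pearson r of 0.991, at 47.6, 53.1, 44.3 and 51.8 CPM in KI livers and 29.1, 28.3 and 32.1 CPM in WT livers. Its lowest KI liver was replicate 3 and its highest WT liver replicate 3, as for Exoc4. Asah2, a neutral ceramidase, had an r of 0.991, and Cttn, which encodes the actin-binding protein cortactin, 0.984. Spout1, a putative methyltransferase, had 0.983, and Zmat3, an RNA-binding zinc finger protein, had 0.979. The log2 differences were 0.72 for Ccng1, 0.39 for Asah2, 0.18 for Cttn, 0.30 for Spout1 and 1.01 for Zmat3. Spearman's rho with Exoc4 was 1 for Zmat3, whose livers stood in the same order, and 0.893 to 0.964 for the other 4. Within genotypes, with each group centred on its mean, r was 0.855, 0.848, 0.864, 0.624 and 0.793. Ccng1 and Zmat3 are known targets of p53, and whether p53 has a part in the difference of Exoc4 was not tested. These r values are the highest of many over 7 libraries that share their genotypes and scaling, and they are a description. Among the other 8 subunits, r with Exoc4 over the 7 libraries ran from -0.477 for Exoc6b to 0.76 for Exoc5.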

How the data were processed

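RNA of 4 KI and 3 WT liver libraries was enriched for polyadenylated RNA and sequenced, per the labels' protocols. The build was mm10, per the submitters' processing notes. No label or header names the mapper, the counting program or the annotation, and no step that marks strand is described, so overlapping genes on opposite strands were treated as not separable. The authors deposited whole-number total counts, TPM and RPKM for each library. The log2 fold changes and corrected p-values deposited by the authors were compared with the new values only. A further 7 columns of values per library (CPM) were not used, since CPM was computed from the counts.

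Counts were tested over the whole table with edgeR 4.0.16 in R 4.3.3 (filterByExpr, TMM scaling, legacy quasi-likelihood F test, Benjamini-Hochberg adjustment), with genotype as the only term. The CPM values use the TMM-scaled library sizes, except that marker sums use total counts. The SE is the log2 difference divided by the root of F, and intervals of 95% use its degrees of freedom. Alternatives were DESeq2 1.42.0, limma-voom (limma 3.58.1), RLE and upper-quartile scaling, no filter, a filter of at least 1 CPM in at least 3 libraries, a replicate block, leaving out each library, and, added after the data were seen, leaving out KI and WT replicate 1 together and lengths of coding transcripts. The fits were tested on simulated counts. Replicates with the same number did not deviate together (correlation of deviations from -0.06 to 0.01). In chi-square tests no pair of libraries of a genotype agreed within sampling noise. Annotation was GENCODE M21, which places 7 of the 9 genes exactly as the deposited table does.

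The members, lists and tests were chosen with earlier results of these data known. Named were all members, up to 4 genes of each list with the smallest p, all tested genes within 1 Mb of Exoc4, and the 5 genes with the highest r with Exoc4, without clone or pseudogene names. The counting error is the Poisson error of the mean count and covers counting only.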

Additional observations from a re-analysis of the deposited data

Results flagged for a closer look

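In 52 genes described by name, the highest or lowest of the 4 KI livers was compared with the other KI livers by its gap over the range, a rule that chance meets in about 1 group in 20. Vps53 had 29.4 CPM in KI replicate 2, against 28.0 to 28.2 CPM in the other KI livers. Akr1b7, a gene near Exoc4 with few counts, had 0.375 CPM in KI replicate 1, against 0.101 to 0.141 CPM in the other KI livers. None of the 9 exocyst subunits met this rule.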

How the results depend on the processing

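Since Exoc4 was selected on these same counts, its calls are given as a description and nothing is read from their number. Exoc4 kept its direction in all 15 alternatives and was called in 10, with log2 differences from 0.87 to 0.97 when 1 library was left out. It was not called with the replicate block (0.92, edgeR adjusted p = 0.166), where the shared numbers do not pair the libraries, nor without KI and WT replicate 1 together (0.90, edgeR adjusted p = 0.0583). The other 8 subunits were called in 0 of 120 refits, with values from -0.047 to 0.33 and edgeR, DESeq2 or limma adjusted p from 0.342 to 0.999. Their sign reversed in 6 of these: Exoc1 had -0.0013 and Exoc8 -0.034 with the replicate block, Exoc7 ran from -0.014 without WT replicate 1 to 0.049 without WT replicate 3, and Exoc8 from -0.046 without KI replicate 2 to 0.16 without KI replicate 3, with -0.018 and -0.039 without KI replicate 4 and WT replicate 2. Over the whole table, 18 genes were called with no filter, 1 with the replicate block and 29 without KI and WT replicate 1 together, against 5. The counts of 0 called in the 6 lists and among the genes near Exoc4 held in every alternative. The share of Exoc4 was the same in RPKM, 11.8% in KI and 6.96% in WT without Exoc6 and Exoc6b, and 17.4% in KI and 10.6% in WT per kilobase of coding transcript, and 1 of the 5 genes most like Exoc4 was among the 11 with the highest Spearman rho.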
